A study of Caenorhabditis elegans with 8 samples.

Results

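The genes described here are nhj-1 and the other genes of DNA end joining in Caenorhabditis elegans, cku-70, cku-80, lig-4 and polq-1. They were taken by name, and nhj-1 was taken because its signal was already known to be lower in the mutant larvae of these same arrays. The question was whether nhj-1 was lower alone or together with the other genes that join DNA ends. Of the 5 genes, 4 had a probe on the array, with 5 probes in all out of 43603. No probe could be matched to cku-80 by the names in the files, and cku-80 was not analysed here.

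The samples were whole hermaphrodite L4 larvae that were picked as sleeping, which happens in the time before a molt. The mutant aptf-1(gk794) and the wild-type strain N2 were sampled 4 times each, with about 200 animals per sample that had been grown at 21.5 °C on plates with bacteria, and 1 single-color Agilent array was used per sample. The gene aptf-1 codes for a transcription factor of the AP2 family that acts in the sleep-active interneuron RIS, and gk794 is a deletion allele of this gene in a strain that was backcrossed to N2. The mutant is described by the study as failing to become immobile, so the groups can differ in behavior as well as in genotype. Each genotype is 1 strain, so differences between the strains at other sites in the genome cannot be told apart from the effect of gk794. The study calls the samples of a genotype biological samples, and neither the labels nor the methods say whether each came from a culture of its own, so the p-values measure the spread between these samples.

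Broken DNA ends can be joined directly by canonical end joining. In this pathway a ring made of the proteins CKU-70 and CKU-80 slides over the ends, and the ligase LIG-4 seals them. NHJ-1 is a further factor of the same pathway in worms, and larvae without it are sensitive to ionizing radiation. POLQ-1, the DNA polymerase theta, joins ends by a different route that uses short matching stretches, and this route leaves small deletions. Canonical end joining is used mostly in somatic cells of the larva, whereas germ cells rely largely on homologous recombination and on polymerase theta.

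All values below are log2 processed signals minus the 75th percentile of the same array, so that 0 marks a probe as bright as that percentile. Differences are mutant minus N2, and a difference of -1 is a lowering by 50%. Values are compared between samples for 1 gene at a time, since the brightness of a probe also depends on its sequence. Counts over all genes tested include targets that could not be matched to a named gene. Saturation affected 0 spots, and the share of spots well above background was 72.2% to 79.7% per array. The 8 arrays lay on 2 slides, with 2 arrays per genotype on either slide. N2 was always at positions 1 and 2 of a slide and aptf-1(gk794) at positions 3 and 4, so position and genotype cannot be told apart without assuming a linear trend. The first principal component (35.9% of the variance) separated replicates 2 and 4 of the mutant, both at position 4, from the other 6 arrays.

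The aptf-1 transcript gave a weak check of the labels. Its 1 probe read -5.34, -5.24, -5.18 and -5.58 on the 4 N2 arrays and -5.96, -7.22, -4.29 and -7.13 on the 4 mutant arrays. The highest of the 8 values came, against its label, from the array labelled aptf-1(gk794) replicate 3, and the other 3 mutant arrays lay below every N2 array. The difference of -0.82 (SE 0.60) was not larger than the spread between arrays (adjusted p = 0.560 by limma, exact two-sided permutation p = 0.314 over 70 assignments). Leaving out the mutant array labelled replicate 3 gave -1.44, leaving out that labelled replicate 2 gave -0.46, and leaving out that labelled replicate 4 gave -0.49. With normexp background correction it was -0.11. This probe exceeded background clearly on all 4 arrays of N2 but on only 2 of the mutant, and whether it lies within the deleted stretch was not determined here.

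nhj-1 (H19N07.3, chromosome V, 1 probe) was bright on every array, with spot signals of 164 to 1178.5 over a local background of 15 to 22. On the N2 arrays it read 0.33, 0.38, 0.35 and 0.98, and on the aptf-1(gk794) arrays it read -0.95, -1.53, -1.09 and -1.17. The groups did not overlap, as was true of 8.10% of all genes tested (568 higher and 915 lower in the mutant), and the gap between the lowest N2 array and the highest mutant array was wider than the range within either group. The mean was 0.51 ± 0.31 in N2 and -1.18 ± 0.24 in the mutant (SD, n = 4 each), a difference of -1.70 (SE 0.18). The mutant signal was thus 30.9% of that of N2, or 3.24-fold lower. Only 16 of the 18301 genes tested had a lower difference. Because nhj-1 was chosen for this difference, the values are a description and no test is given for them. In whole larvae, fewer cells of a type and less RNA per cell cannot be told apart. The study lists RNA of H19N07.3 as lower in the mutant in these larvae and also in embryos, which were measured on other arrays. It also followed this gene with a tagged copy of its protein. It saw the H19N07.3 protein in the nuclei of all somatic cells and reports no control of its levels by aptf-1. That is a measure of protein from a transgene, whereas the values here are RNA of the gene itself, and how they relate was not tested.

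The separation of nhj-1 needed the scaling between arrays. Before scaling, its processed signal was 398 on N2 replicate 1, which lay within the range of the 4 mutant arrays of 150 to 432. The other 3 N2 arrays lay between 887 and 1276. N2 replicate 1 was also the dimmest array, with a 75th percentile of 315 against 431 to 837 on the other 7. A comparison with the other end-joining genes on the same array, which does not use the scaling, is given below.

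cku-70 (Y47D3A.4, chromosome III, 1 probe) encodes a subunit of the Ku ring. It read 0.09, 0.12, 0.08 and 0.05 on the N2 arrays and 0.35, 0.24, 0.31 and 0.20 on the mutant arrays. All 4 mutant arrays lay above all 4 N2 arrays, on the opposite side from nhj-1, an order seen in 568 of the 18301 genes tested. The mean was 0.08 ± 0.03 in N2 and 0.28 ± 0.07 in the mutant (SD, n = 4 each), a difference of 0.19 (SE 0.07, 95% interval 0.03 to 0.35). This difference was small and did not pass the test over all genes (limma, adjusted p = 0.357). With a linear term for array position the difference was 0.34.

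lig-4 (C07H6.1, chromosome III, 1 probe) encodes the ligase of canonical end joining. It read 0.90, 0.80, 0.88 and 0.78 on the N2 arrays and 0.85, 0.87, 0.82 and 0.83 on the mutant arrays. The groups overlapped completely, with each mutant value inside the range of N2. The difference was 0.0039 (SE 0.07, adjusted p = 0.982 by limma), and its 95% interval of -0.15 to 0.16 bounds any change to a small one in either direction. Both cku-70 and lig-4 varied little from array to array. The spread of cku-70 within genotypes was at percentile 0.978 of all genes tested and that of lig-4 at percentile 0.410, whereas that of nhj-1 was at percentile 67.1.

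polq-1 (W03A3.2, chromosome III) encodes polymerase theta and had 2 probes. The brighter probe read 0.12, 0.23, 0.12 and -0.04 on the N2 arrays and 0.39, 0.43, 0.14 and 0.25 on the mutant arrays, and the groups overlapped. The dimmer probe read -3.94, -3.74, -4.23 and -3.69 on the N2 arrays and -3.58, -4.05, -4.41 and -3.98 on the mutant arrays, and these groups also overlapped. The probes disagreed in sign, with differences of 0.19 (adjusted p = 0.482 over all probes) and -0.11 (adjusted p = 0.820). Their mean gave a gene-level difference of 0.04 (SE 0.13, 95% interval -0.25 to 0.34, adjusted p = 0.891 by limma). Slide 1 gave 0.28 and slide 2 gave -0.19, so no direction can be given for polq-1.

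**Figure D1:**
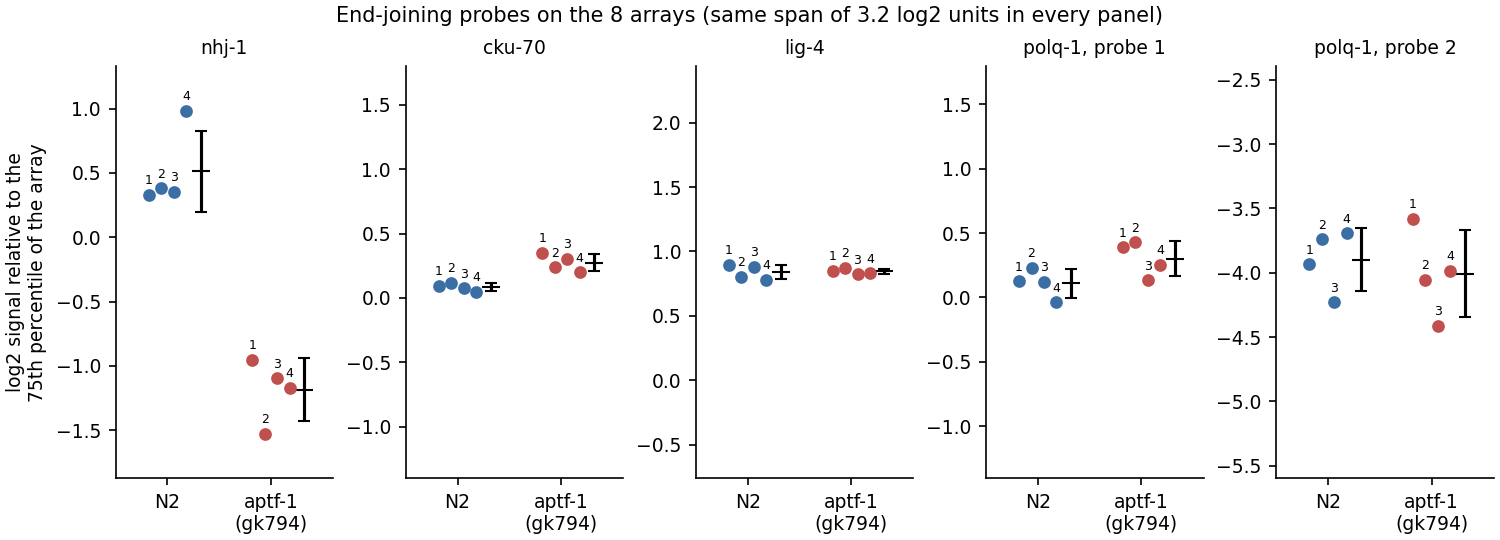
Log2 signal relative to the 75th percentile of the array (vertical axis) for the 5 end-joining probes in N2 (blue) and aptf-1(gk794) (red), with 1 numbered point per array and the mean ± SD of 4 arrays as a bar. Every panel spans the same number of log2 units: nhj-1 separates by 1.70, while the other probes differ by 0.19 or less.

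Thus 3 end-joining genes other than nhj-1 could be tested, and 0 of them were called, where a called gene had an adjusted p under 0.05 and a change of at least 1.5-fold. The share called over all 18301 genes tested was 0.0601%, or 11 genes, with 2240 genes at an unadjusted p under 0.05. A count of 0 of 3 therefore does not set these genes apart from the rest, and their intervals carry more than the count. The lowest ends of the 95% intervals were 0.03 for cku-70, -0.15 for lig-4 and -0.25 for polq-1. Each lay far above the difference of -1.70 that was measured for nhj-1. The dimmer polq-1 probe, with spot signals of 37 to 77 over a local background of 16 to 19, had a lower end of -0.55. The bound for polq-1 is thus less firm than those for cku-70 and lig-4.

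The same was seen on each array by itself. The log2 signal of nhj-1 minus the mean of cku-70, lig-4 and polq-1 was 0.63, 0.66, 0.72 and 1.33 on the N2 arrays and -0.82, -1.29, -0.76 and -0.89 on the mutant arrays. As levels of different probes these values have no zero of their own, and only their change between groups can be read. The mean went from 0.84 ± 0.33 in N2 to -0.94 ± 0.24 in the mutant (SD, n = 4 each), a change of -1.78, while the mean of the other 3 genes changed by 0.08. Against each gene alone the change was -1.89 for cku-70, -1.70 for lig-4 and -1.74 for polq-1. This measure contains nhj-1, and so it is a description as well.

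Slide was not used in choosing the genes and could be tested. Over all genes, 0.0382% differed between slides at an adjusted p under 0.05 (7 genes by limma, with 673 at an unadjusted p under 0.05). None of the 4 end-joining genes did, each with an adjusted p of 0.999, and nhj-1 differed by 0.22 (SE 0.18) between slides. Within the first slide nhj-1 was lower in the mutant by a log2 difference of -1.58 and within the second by -1.81. When the fit held slide and a linear trend over positions, nhj-1 differed by -1.68. Without N2 replicate 4, the array with the highest nhj-1 value, it was -1.54.

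**Figure D2:**
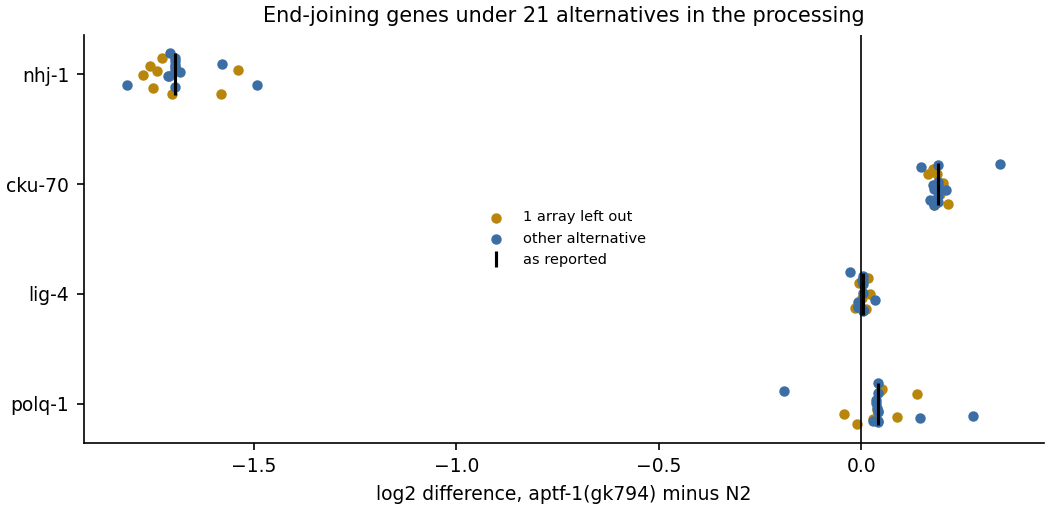
Log2 difference, mutant minus N2 (horizontal axis), of each end-joining gene as reported (black line) and under 21 alternatives in the processing, with fits that leave out 1 array in gold and the others in blue. The values of nhj-1 stay between -1.81 and -1.49, and those of the other 3 genes between -0.19 and 0.34.

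Other DNA repair genes were examined next, to see whether nhj-1 was lower together with repair genes of other pathways. 4 lists with 60 genes were described, for homologous recombination, the damage checkpoint, excision and mismatch repair, and crosslink repair with translesion polymerases. All 60 had a probe, and 59 were tested. ced-13, which promotes cell death after damage, was not well above background on all 4 arrays of either genotype. 0 of the 59 genes were called, beside 0.0601% of all genes tested, so this count does not set them apart from the rest. Of the 59, 51 had a higher mean in the mutant (86.4%) and 8 a lower mean, whereas 45.3% of all genes tested had a higher mean. The median difference was 0.13, against -0.03 over all genes tested, so the repair genes as a group lay slightly on the other side from nhj-1.

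The lowest of the 59 differences was -0.13, for chk-2, a checkpoint kinase of meiosis. At an unadjusted p under 0.05, 13 of the 59 were higher (22.0%) and 0 were lower, against 4.49% higher and 7.75% lower of all genes tested. The same number, 13, had groups that did not overlap, each with the mutant above N2. Of all 18301 genes tested, 568 had the mutant above N2 without overlap and 915 had it below, together the 8.10% given above. The smallest adjusted p among the 59 was 0.251. With slide and a linear trend over positions in the fit, the median of the 59 was 0.26.

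Homologous recombination copies lost sequence from an intact template. Of its 23 genes, 20 had a higher mean in the mutant and 3 a lower one, with a median difference of 0.11, which was 0.066 without N2 replicate 4 and 0.075 without aptf-1(gk794) replicate 1. Genes at the ends of these ranges were picked out after their values were seen. The differences ran from -0.12 for rad-51, the recombinase that pairs the strands, to 0.35 for dna-2, a nuclease and helicase of end resection. com-1, which starts the trimming of broken ends, read 0.95 to 1.13 in N2 and 1.20 to 1.53 in the mutant, without overlap, and differed by 0.29 (SE 0.10, adjusted p = 0.328 by limma). him-6, the worm relative of the Bloom helicase, read 0.83 to 1.22 in N2 and 1.25 to 1.40 in the mutant and differed by 0.30 (SE 0.11, adjusted p = 0.352). Neither passed the test over all genes.

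The damage checkpoint senses broken DNA and stops the cell cycle or triggers cell death. Of 11 genes tested, 9 had a higher mean and 2 a lower one, with a median difference of 0.12. hpr-9, a part of the clamp that is loaded onto damaged DNA, read -1.23 to -0.97 in N2 and -0.92 to -0.73 in the mutant and differed by 0.23 (SE 0.09, adjusted p = 0.362). hpr-17, which belongs to the loader of this clamp, read -0.17 to 0.06 in N2 and 0.04 to 0.40 in the mutant, with overlap, and differed by 0.24 (SE 0.10, adjusted p = 0.398). Both changes were small and neither gene was called.

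Excision and mismatch repair remove damaged or wrongly paired bases. Of 18 genes, 15 had a higher mean and 3 a lower one, with a median difference of 0.17 and a range from -0.11 for ung-1 to 0.40 for parp-2. parp-2 encodes an enzyme that marks DNA breaks with ADP-ribose. It read -0.36 to 0.30 in N2 and 0.28 to 0.49 in the mutant, with overlap (SE 0.14, adjusted p = 0.339). xpa-1, which checks damage in nucleotide excision repair, read 0.97 to 1.15 in N2 and 1.18 to 1.43 in the mutant, without overlap, and differed by 0.25 (SE 0.08, adjusted p = 0.339).

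Among the 7 genes for crosslink repair and translesion polymerases, all had a higher mean in the mutant, with differences of 0.03 to 0.29 and a median of 0.15. fan-1, a nuclease of crosslink repair, read 0.20, 0.22, 0.15 and 0.12 on the N2 arrays and 0.49, 0.54, 0.32 and 0.50 on the mutant arrays, without overlap. Its difference of 0.29 (SE 0.08) had the smallest adjusted p of all repair genes other than nhj-1, at 0.251 by limma. polk-1, a polymerase that can copy past damaged bases, differed by 0.25 (SE 0.11, adjusted p = 0.407), and by 0.59 with slide and a linear trend over positions in the fit.

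**Figure D3:**
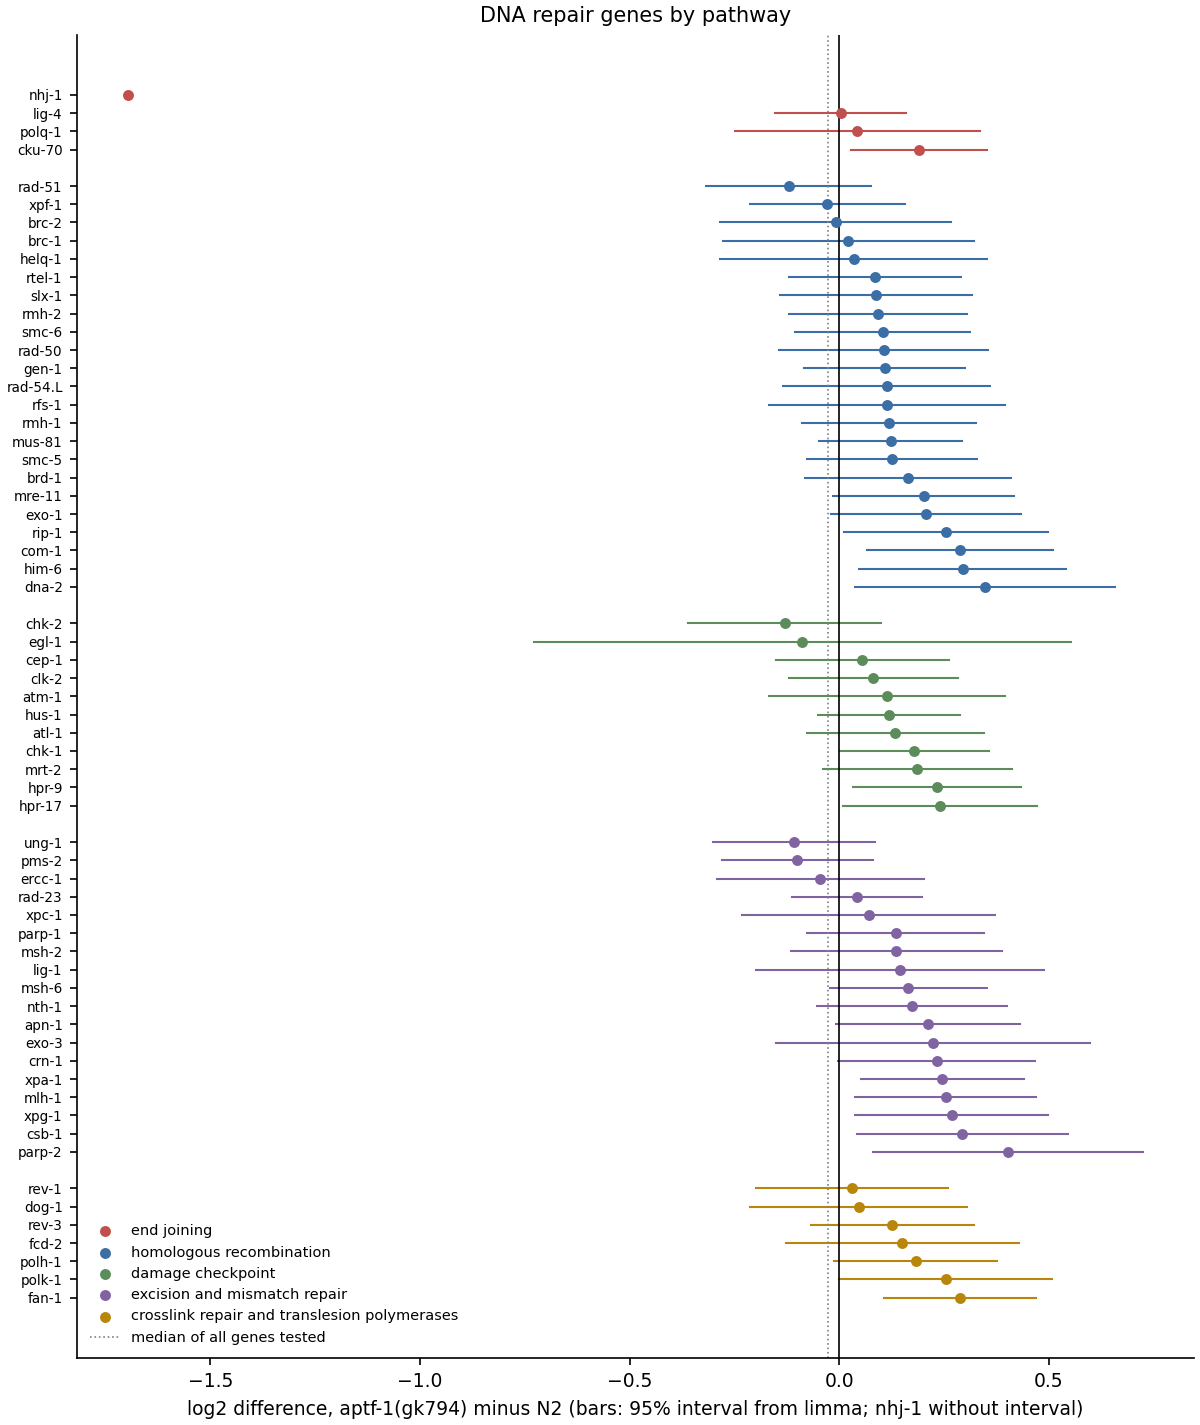
Log2 difference, mutant minus N2 (horizontal axis), of the tested DNA repair genes grouped by pathway, with 95% intervals from limma; nhj-1 is drawn without an interval because it was chosen for its difference. All repair genes but nhj-1 lie between -0.13 and 0.40, and most lie to the right of the median of all genes tested (dotted line, -0.03).

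Markers of tissues and stages were set beside these values, since many repair genes are used in the germline. The 11 germline genes had a median difference of 0.03, with 8 higher and 3 lower, and their mean level was 1.56 to 1.72 on the N2 arrays and 1.69 to 1.75 on the mutant arrays. All 8 sperm genes had a lower mean in the mutant (median -0.05), as had all 5 yolk genes tested (median -0.35), all 4 genes of body wall muscle (median -0.16) and all 4 of the intestine (median -0.27). The mean level of the intestine list was 2.27 to 2.65 on the N2 arrays and 2.09 to 2.18 on the mutant arrays, without overlap. That of the yolk list was 4.77 to 5.42 and 4.29 to 5.13, that of the muscle list 2.47 to 2.54 and 2.20 to 2.48, and that of the sperm list -0.54 to -0.43 and -0.82 to -0.42, all with overlap. The 5 neuronal genes had a median of 0.01, with mean levels of -1.43 to -1.31 and -1.43 to -1.28. Of 4 epidermal markers, dpy-7 and bli-1 were not well above background on all arrays of a genotype, and the other 2 went opposite ways. rol-6, a cuticle collagen gene, differed by 2.05 (SE 0.83, adjusted p = 0.390), the largest difference in size among all marker genes tested, and col-19, a collagen gene of the adult cuticle, by -0.37 (SE 0.19, adjusted p = 0.459). Within each genotype rol-6 varied widely, from -1.03 to 1.07 on the N2 arrays and from 0.37 to 3.70 on the mutant arrays. The median of these 2 opposite differences was 0.84. The mean level of the 2 genes was 2.08 to 2.98 on the N2 arrays and 2.67 to 4.08 on the mutant arrays, with overlap. 0 of the marker genes tested were called, beside 0.0601% of all genes tested, so this count does not set them apart either. At an unadjusted p under 0.05 (limma), 2 of the 4 intestine genes and 1 of the 5 yolk genes were lower. 1 neuronal and 1 epidermal gene were higher, against 7.75% lower and 4.49% higher of all genes tested. Groups did not overlap for 2 intestine and 1 muscle gene, lower, and 1 neuronal gene, higher, against 8.10% of all genes tested. The smallest adjusted p, 0.134 (limma), was that of act-5 of the intestine, with a difference of -0.55. The part of tissue or stage in the values of nhj-1 and of the repair genes was not tested.

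The neighbours of nhj-1 on chromosome V were examined to see whether a stretch of the chromosome differed as a whole. The genes on either side with adjacent names did not follow it. math-33, which encodes a ubiquitin protease, read 0.96 to 1.24 in N2 and 1.01 to 1.20 in the mutant and differed by 0.04. mboa-2, an acyltransferase gene, read 0.60 to 1.16 in N2 and 0.52 to 1.06 in the mutant and differed by -0.05. erfa-3, a translation release factor gene, differed by -0.12, etfr-1 by -0.03, atp-5, an ATP synthase subunit gene, by -0.06, and lmtr-3 by -0.04. All 6 had overlapping groups and adjusted p values from 0.616 to 0.912 (limma). The 95% intervals of the 6 genes together spanned -0.45 to 0.34, and none reached the difference of nhj-1.

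**Figure D4:**
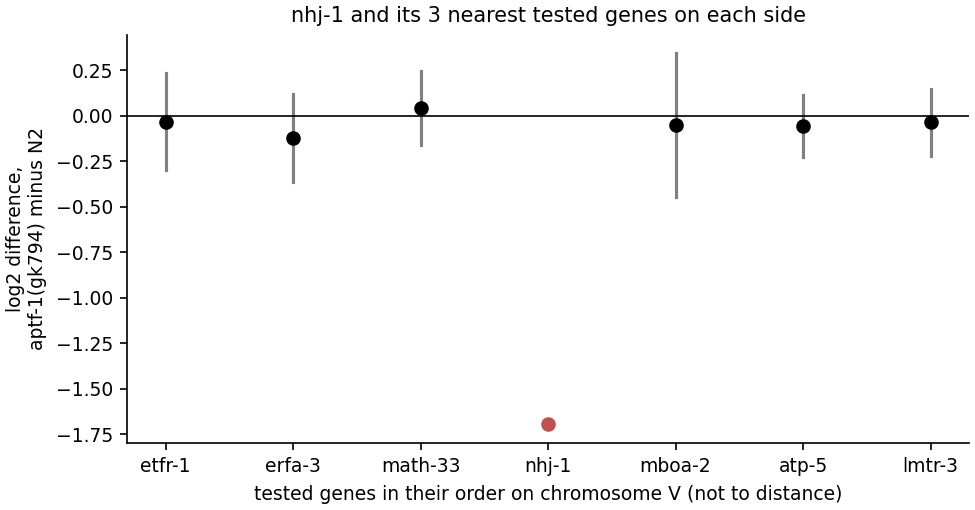
Log2 difference, mutant minus N2 (vertical axis), of nhj-1 (red) and of the 3 nearest tested genes on each side (black, with 95% intervals from limma), in their order on chromosome V and not drawn to distance. nhj-1 lies at -1.70 and its 6 neighbours between -0.12 and 0.04.

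The genes whose profile over the 8 arrays was most like that of nhj-1 were found by the root mean square difference of the log2 values after each gene's own mean was removed. The lowest value, 0.27, was that of the target NP120042, which has no gene name in the tables used. It read -6.02 to -5.59 in N2 and was not well above background on any of the 4 mutant arrays, so its likeness to nhj-1 rests on mutant values near background. K12G11.6, an unnamed gene on chromosome V, followed at 0.32 and differed by -1.43 between the genotypes, or by -0.47 with normexp background correction and -0.76 with slide and a linear trend over positions. flp-11, which encodes the sleep-inducing peptides of RIS, was at 0.36 with a difference of -1.18. nssp-76 was at 0.37 with -0.99, or -0.32 with normexp, and rnh-1.3, a ribonuclease H gene, was at 0.39 with -1.27. A gene this near to nhj-1 has to be lower in the mutant, so these differences are given without a test.

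Within the groups the 6 profiles were not the same. N2 replicate 4 was the highest N2 array for nhj-1, K12G11.6 and nssp-76, whereas N2 replicate 1 was the highest for NP120042, flp-11 and rnh-1.3. flp-11 read 0.45 to 0.60 in N2 and -0.71 to -0.64 in the mutant, a far smaller spread within groups than that of nhj-1. The other end-joining genes were distant in this measure. Out of 18300 genes ranked by likeness to nhj-1, lig-4 was at rank 9326, polq-1 at 10560 and cku-70 at 13815. The measure contains the genotype difference for which nhj-1 was chosen, so a gene with little difference cannot be near it. These ranks therefore restate the differences given above and add no separate support.

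**Figure D5:**
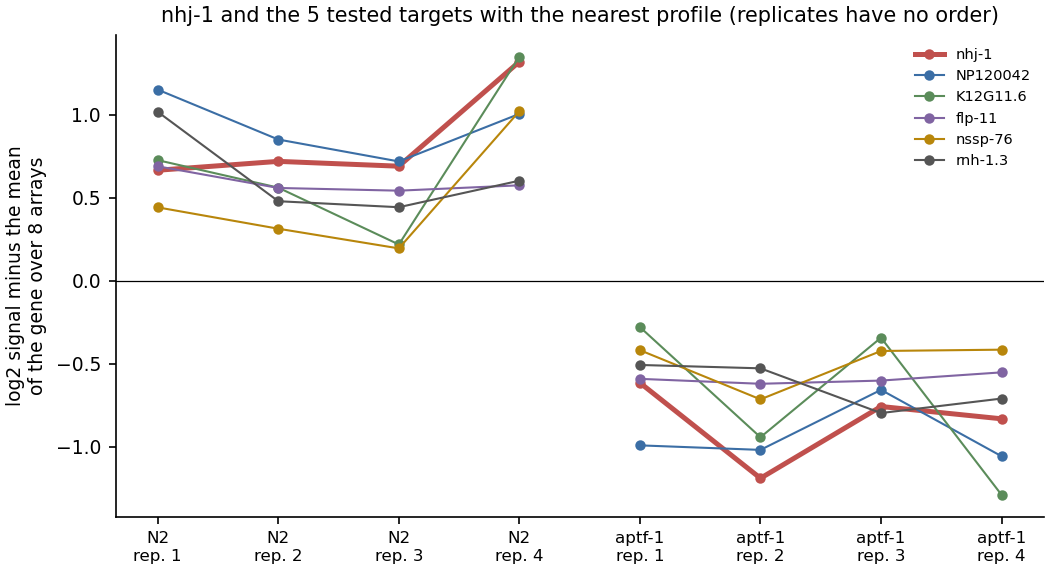
Log2 signal minus the mean of the gene over 8 arrays (vertical axis) on each N2 and aptf-1(gk794) array (horizontal axis; lines only link the points of a gene, and replicates have no order) for nhj-1 and the 5 targets with the nearest profile. All 6 are above 0 on the 4 N2 arrays and below 0 on the 4 mutant arrays, and NP120042 is near background in the mutant.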

How the data were processed

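The authors deposited linear spot intensities of 8 arrays as the scanner software gave them (per the file headers, version 10.7.3.1 of Agilent Feature Extraction). Of these, the processed intensity is background-subtracted but not scaled between arrays. A deposited table of processed intensities, which had the rank order of the scanner values on each array, served as an alternative. Per the labels, 200 ng of RNA was amplified and labelled with Cy3. Controls were dropped, as were 18 to 62 spots on an array that carried an outlier flag. Values on the log2 scale were averaged where several spots held 1 probe, and the 75th percentile of each array was subtracted. A probe entered the test if 1 genotype or both had it well above background throughout (32007 probes). Names and chromosomes came from a table of NCBI genes for WBcel235, an assembly newer than that of the array design, so no coordinates are given. 34266 of 43603 probes (78.6%) matched 19794 genes. A gene is the mean of its tested probes, and a target without a gene name was counted as a gene of its own.

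Genotype was the single term of a limma fit (version 3.58.1 under R 4.3.3; lmFit, then eBayes; two-sided), with Benjamini-Hochberg adjustment over 18301 genes, after a test on simulated data. A gene was called where its adjusted p was below 0.05 and its change at least 1.5-fold, the fold limit of the study. No counts exist for arrays, so precision rests on 4 arrays per group. The end-joining genes and all lists were chosen with earlier results of these data known. Named were the end-joining genes, aptf-1, the 3 nearest tested genes on each side of nhj-1, in each repair list the called genes and the 2 with the smallest p, and the 5 targets most like nhj-1. The alternatives were other scalings (quantile, median), normexp background correction (offset 50, on median spot signals), the deposited table, other filters, the median of probes, slide and position terms, a replicate block, a moderated spread with trend, a threshold without the fold limit, and leaving out each array. A planned search for an AP-2 motif in promoters was not run, and no sequences are shown, because the files used here hold none. Tables and plots were made in Python 3.11.15 (pandas 2.3.3, numpy 2.4.6, matplotlib 3.10.9).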

Additional observations from a re-analysis of the deposited data

Results flagged for a closer look

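In 50 groups of 4 arrays, 6 had 1 array far from the other 3, where the gap to the nearest array took up more of the group's whole range than Dixon's 95% critical value for 4 samples allows. Chance flags about 1 group in 20, or 2.5 of 50. For nhj-1 in N2 the gap took a share of 0.918 of the range, since N2 replicate 4 read 0.98 and the other 3 arrays 0.33 to 0.38. The log2 signal of nhj-1 minus the mean of the other end-joining genes had a share of 0.878 in N2, again from N2 replicate 4 (1.33, against 0.63 to 0.72). Without that array the differences of these measures were -1.54 and -1.61.

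polk-1 had a share of 0.833 in N2, where N2 replicate 4 read -0.72 and the others -0.42 to -0.36. etfr-1 had a share of 0.931 in N2, where N2 replicate 3 read -2.08 and the others -1.67 to -1.64. nssp-76 had a share of 0.974 in aptf-1(gk794), where replicate 2 read -5.11 and the others -4.82. The target NP120042 had a share of 0.836 in aptf-1(gk794), where replicate 3 read -7.40 and the others -7.80 to -7.73, all near background.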

How the results depend on the processing

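nhj-1 kept its direction under all 21 alternatives (-1.81 to -1.49; -1.77 to -1.54 when 1 array was left out), and so did cku-70 (0.15 to 0.34, adjusted p 0.302 to 0.835). Of the other end-joining genes and the named genes of the other repair lists, 0 were called under any alternative with a test. What follows depended on the processing, and the cause was not tested. The 11 called genes became 7 with median scaling, 2 without a filter on dim probes, 24 with probes well above background on all 8 arrays, 21 with a trended and robust spread, 0 with slide and position, and 2 to 5 when 1 array was left out. The 19 called probes became 12 without the filter, 0 with slide and position, and 4 to 10 when 1 array was left out.

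With the replicate block, 0 genes and 0 probes were called, with 2297 genes at an unadjusted p under 0.05, and nhj-1 still differed by -1.70. Deviations of arrays with the same number correlated at -0.17, 0.24, 0.15 and 0.18, and 2 of 8 arrays were closest to their own number. These values do not show that the numbers pair the samples, and they cannot exclude it. With slide and position, 1117 genes had an unadjusted p under 0.05.

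lig-4 turned to -0.0083 with quantile normalization, -0.0087 with median scaling and -0.0080 with the deposited table, and to -0.016 to 0.022 when 1 array was left out. polq-1 ranged from -0.043 (without aptf-1(gk794) replicate 1) to 0.14 when 1 array was left out, was -0.01 without N2 replicate 3, and was 0.28 and -0.19 within the slides. With slide and position, aptf-1 turned to 1.32, etfr-1 to 0.23, math-33 to -0.090 and lmtr-3 to 0.084. When 1 array was left out, etfr-1 ranged from -0.14 to 0.0081, mboa-2 from -0.15 to 0.054 and lmtr-3 from -0.077 to 0.0018. atp-5 turned to 0.031 with quantile normalization, 0.067 with normexp and 0.035 with the deposited table.

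With slide and position the list medians were 0.25 for homologous recombination, 0.22 for the checkpoint, 0.30 for excision and mismatch repair, 0.38 for crosslink repair, 0.26 for these together, 0.12 for germline, -0.29 for sperm (-0.22 within the first slide), -0.79 for yolk, 0.042 for muscle and -0.61 for intestine. polk-1 was 0.59 and hpr-17 0.37 with these terms, and erfa-3 was -0.0010. erfa-3 ranged from -0.19 to -0.063 when 1 array was left out. With normexp, the dim targets NP120042, K12G11.6 and nssp-76 came to -0.16, -0.47 and -0.32 and aptf-1 to -0.11. When 1 array was left out, aptf-1 ranged from -1.44 to -0.46, and the medians from 0.066 to 0.14 for homologous recombination, 0.087 to 0.18 (without N2 replicate 3) for the checkpoint, 0.099 (without aptf-1(gk794) replicate 1) to 0.19 for crosslink repair and -0.51 to -0.18 (without aptf-1(gk794) replicate 3) for yolk. With quantile normalization the yolk median was -0.21 and that of muscle -0.081. Within the first slide him-6 was 0.19 and parp-2 0.24. Low signal limits aptf-1 and NP120042, which were not well above background on all mutant arrays.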
